A study of Mus musculus with 4 samples.

Results

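Mitosis genes were examined across 4 mammary gland tumours of MMTV-R26Met mice by bulk sequencing of poly-A RNA. The 35 genes were taken by symbol from a list of mitotic kinases, cyclins, kinesins, kinetochore, checkpoint and cytokinesis genes. All 35 were found among the 28440 genes of the deposited counts, and all 35 passed the filter on low counts that left 15808 genes. The MMTV-R26Met line models triple-negative breast cancer: the MMTV promoter drives Cre, mainly in the mammary epithelium, and Cre activates extra Met carried at Rosa26. The tumours, numbered 1 to 4, form 1 group, with no normal gland, treated tumour or control line beside them, so tumours are compared with each other and not with a baseline. The labels give no age or batch and do not say that each tumour had its own mouse, so p-values measure only the spread between these samples, which may be technical.

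Mitosis is the part of the cell cycle in which copied chromosomes are condensed, attached to the spindle and pulled apart. Cyclin-dependent kinase 1 drives entry, Aurora and Polo-like kinases build the spindle, the checkpoint holds anaphase back until every kinetochore is attached, and the anaphase-promoting complex then destroys cyclin B and securin. Most of these genes are transcribed late in the cell cycle under shared regulators (B-MYB, FOXM1 and the DREAM complex), so their summed RNA is widely used as a measure of proliferation in breast tumours. In bulk tissue, more dividing cells and more of the RNA per dividing cell cannot be told apart.

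The libraries held 35220504 to 42809015 counts, and single mitosis genes had 399 to 27288 counts in a library. Values are given in CPM (counts scaled to library size with TMM factors). Counts of any 2 libraries differed by more than sampling noise (chi-square of 152 to 455 for each degree of freedom over genes), so none was a copy of another.

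The mitosis genes were highest in tumour 3, intermediate in tumour 1 and lowest in tumours 2 and 4. Together they held 0.276, 0.167, 0.412 and 0.172% of all counts of tumours 1 to 4 (95% exact binomial intervals of 0.274 to 0.277, 0.166 to 0.169, 0.410 to 0.415 and 0.171 to 0.173%, counting error only). Their summed level was 2782, 1705, 3977 and 1754 CPM in tumours 1 to 4. Relative to each gene's own mean over the tumours, the median mitosis gene stood at 0.17, -0.47, 0.70 and -0.47 on the log2 scale in tumours 1 to 4, while the median of all genes tested was within 0.01 of 0 in each tumour. TMM scaling aims to centre most genes between libraries, so an all-gene median near 0 is not a separate result. The median gap between the highest and lowest tumour was 2.39-fold for mitosis genes and 1.72-fold for all genes tested. On the log2 scale the median range was 1.26 for mitosis genes and 0.78 for all genes, and without tumour 3 it was 0.73 and 0.59.

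**Figure D1:**
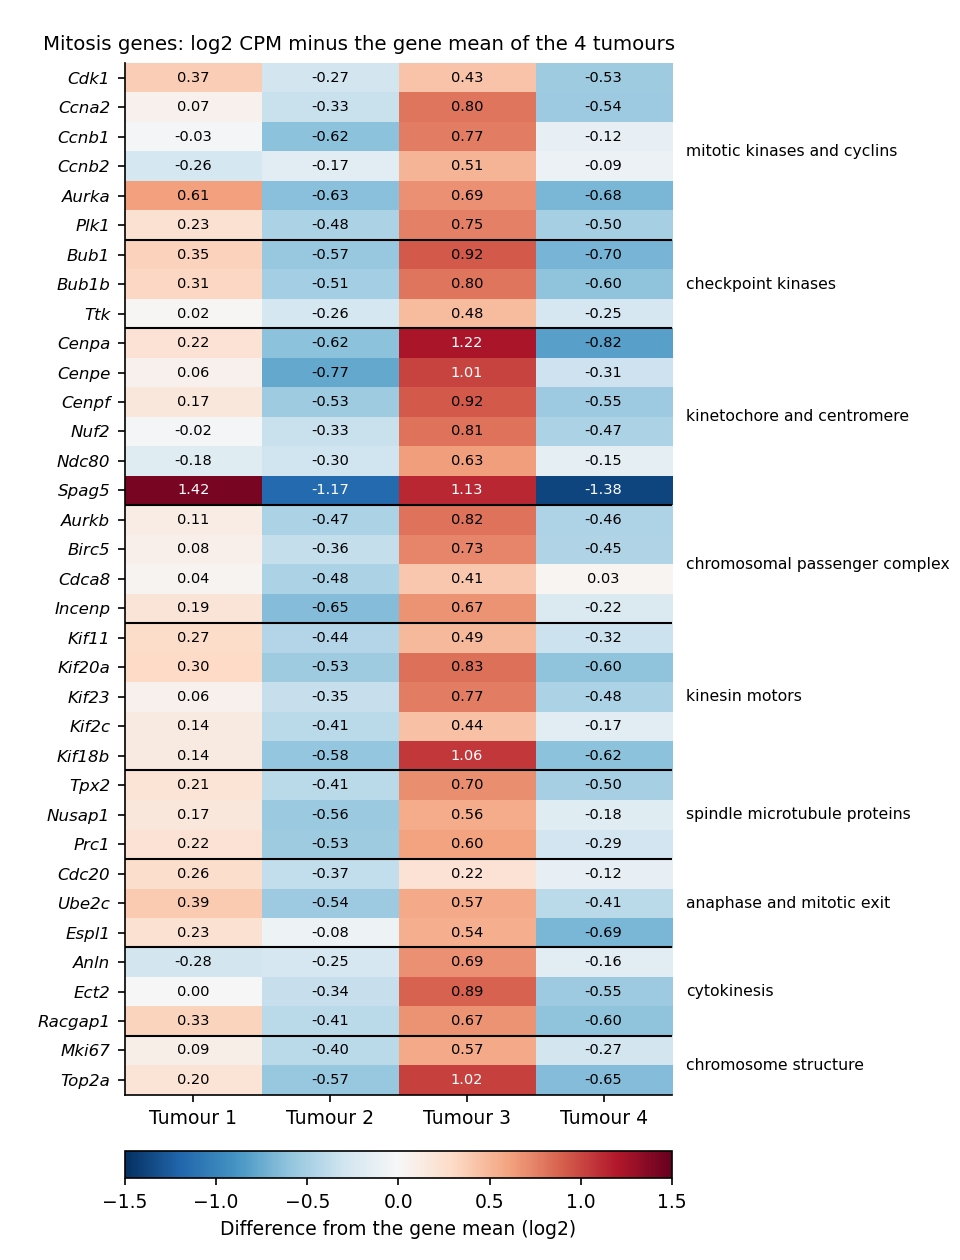
Log2 CPM of each mitosis gene in each tumour after subtraction of the gene's own 4-tumour mean, grouped by role; red is above and blue below the mean, and each cell prints its value. The tumour 3 column is positive for all 35 genes, and Spag5 has the widest row, from 1.42 in tumour 1 to -1.38 in tumour 4.

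Of the 35 genes, 33 were highest in tumour 3 (29.7% of all genes tested were highest there), and the other two, Spag5 and Cdc20, were highest in tumour 1. With scaling by library size alone 34 were highest in tumour 3, Cdc20 included. For 30 genes tumour 3 was followed by tumour 1 (13.5% of all genes tested), 18 of them lowest in tumour 4 and 12 lowest in tumour 2. Only Ccnb2 and Anln (tumour 3, then 4, 2 and 1) and Ndc80 (tumour 3, then 4, 1 and 2) departed from that among the 33. All 35 genes were higher in tumour 3 than in tumour 2, 24 of them by more than 2-fold (9.39% of all genes tested), with a median of 2.18-fold. All 35 were also higher in tumour 3 than in tumour 4, 20 by more than 2-fold (11.7% of all genes tested), with a median of 2.36-fold. Against tumour 1 the median was 1.44-fold in tumour 3 and no mitosis gene passed 2-fold in either direction. Of all 15808 genes tested, 1149 were over 2-fold higher in tumour 3 than in tumour 1 and 1042 over 2-fold lower. Tumour 1 in turn exceeded tumour 2 by more than 2-fold for 2 genes, Aurka and Spag5 (5.0% of all genes tested), and tumour 4 for 4 genes, Aurka, Bub1, Cenpa and Spag5 (9.08% of all genes tested). Between tumours 4 and 2, 16 mitosis genes were higher in tumour 4, none was past 2-fold in either direction, and the median was 0.988-fold. Of all 15808 genes tested, 862 were over 2-fold higher in tumour 4 than in tumour 2 and 977 over 2-fold lower. Each ratio compares 2 libraries, and its exact interval covers counting error only. For tumour 3 over tumour 2 and over tumour 4 the interval lay above 1 for all 35 genes. For tumour 3 over tumour 1 it lay above 1 for 31 and below 1 for 1, Spag5. Over all genes tested, neither these interval counts nor the counts of genes merely higher in 1 tumour of a pair were made. Such counts therefore do not set mitosis genes apart from other genes.

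A gene-wise test asked whether a gene varied between the tumours more than genes of like expression, and 1 mitosis gene, Spag5, passed it (edgeR adjusted p = 0.000777, threshold 0.05). Over all genes tested 3.63% passed, so 1 of 35 is no larger a share. Cenpa, the centromeric histone, was the only other member with an unadjusted p under 0.05 (0.0313, edgeR adjusted p = 0.421), and DESeq2 marked 0 members as dispersion outliers. Over all 15808 genes tested, 1381 had an unadjusted p under 0.05 and DESeq2 marked 91. The trended biological coefficient of variation that the test allows had a median of 0.346 for these genes, and their own estimates had a median of 0.369.

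**Figure D2:**
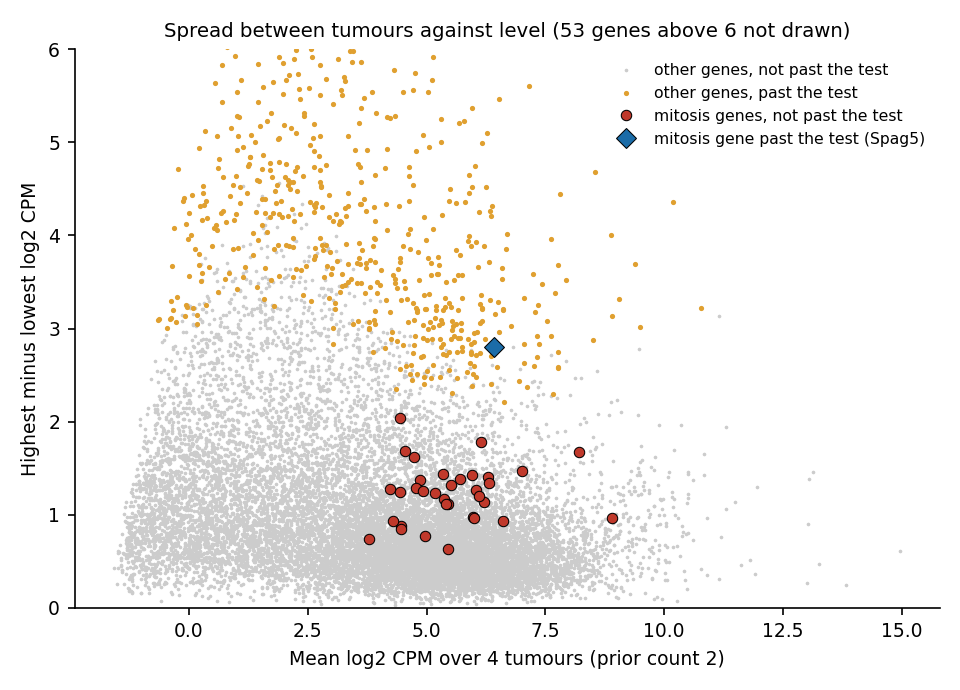
Each point is a gene tested, with its mean log2 CPM over the 4 tumours on the x axis and its highest minus lowest log2 CPM on the y axis. The mitosis genes other than Spag5 lie between 0.63 and 2.03 log2 units, and Spag5 lies at 2.80; 53 genes above 6 are not drawn.

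Of 23 markers of epithelium and other cell types, 3 were highest in tumour 3 and next in tumour 1, as were 13.5% of all genes tested. They were the endothelial marker Kdr and the muscle markers Acta1 and Myh4. The muscle markers Acta1, Myh4 and Ckm did not pass the filter on low counts, nor did Cd3e, Cd79a, Adipoq and Plin1. None of these was tested, and they are outside the genes behind the 13.5%. In tumours 1, 2 and 4, Acta1 had only 16, 8 and 9 counts and Myh4 had 12, 1 and 3, so their second place rests on few counts. The 4 epithelial markers (Epcam, Krt8, Krt18, Cdh1) summed to 2280, 3430, 2980 and 3500 CPM in tumours 1 to 4, and each was lowest in tumour 1. The summed mitosis counts per Epcam count were 5.82, 2.25, 7.96 and 2.35 in tumours 1 to 4. Epcam itself had 478, 758, 500 and 746 CPM, lower in tumours 1 and 3, so this ratio sets the tumours further apart than CPM does. Krt18 had 735, 1129, 1106 and 874 CPM, and no marker other than Epcam was used as a scale. The 6 leukocyte markers summed to 211, 308, 251 and 253 CPM in tumours 1 to 4. Csf3r, a neutrophil marker among them, had 6.72, 8.97, 29.7 and 13.8 CPM (edgeR adjusted p = 0.773), highest in tumour 3. The 4 fibroblast markers summed to 1570, 1750, 2120 and 2570 CPM, and the 3 endothelial markers to 139, 102, 122 and 83.2 CPM. No tested marker of these 4 lists passed. Skeletal muscle RNA did move with tumour 3. Acta1, Myh4 and Ckm summed to 766 CPM, or 0.0795% of counts, in tumour 3, against 0.802, 0.405 and 0.342 CPM in tumours 1, 2 and 4, and no muscle marker was at 0 in any tumour. Of the 3 adipocyte markers, Fabp4 had 15.1, 25.9, 91.2 and 7.94 CPM (edgeR adjusted p = 0.000671), while Adipoq had 10, 129, 7 and 11 counts and Plin1 had 3, 47, 3 and 10 counts. The part of these tissues in the mitosis gene levels was not tested.

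**Figure D3:**
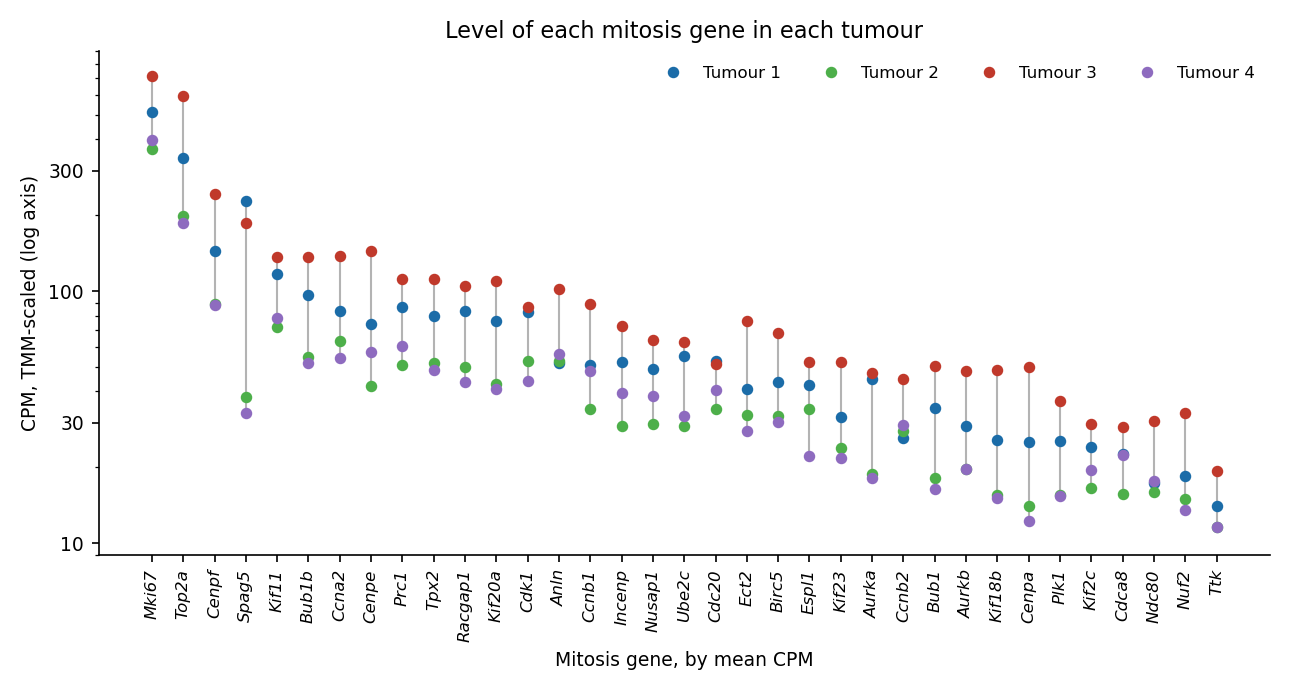
CPM of each mitosis gene on a log axis, 1 point per tumour, ordered by mean level; grey lines join the lowest and highest tumour. The tumour 3 point is uppermost for all genes but Spag5 and Cdc20, and the points of tumours 2 and 4 lie close together for most genes.

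The start-site regions of these genes are shown because genes that peak late in the cell cycle are known for a short element, the cell cycle genes homology region (letters TTTGAA), that is bound by the DREAM and B-MYB complexes, and for CCAAT boxes bound by NF-Y. RefSeq windows (GRCm38.p6) of 250 bases before and 50 after a start were at hand for 30 of the 35 genes, the exceptions being Aurkb, Ccna2, Incenp, Kif20a and Tpx2. On either strand, TTTGAA occurred in the windows of 24 of the 30 genes (80.0%), against 14.8% of 11362 genes tested with a window, and within 50 bases of the start in 22 of the 24. Distance to the start was not counted over all genes tested, so the 22 of 24 has no background to be read against. CCAAT occurred in 24 of 30 (80.0%), against 42.9%, and 21 of 30 (70.0%) held both, against 6.06%. The 2 motifs shared bases in 1 of the 30 genes and in 0.123% of genes tested. The 6 genes with a window and no TTTGAA were Birc5, Bub1, Ccnb1, Cenpe, Nuf2 and Nusap1. A match of letters is not a measured binding site, and variants of the element with other letters were not searched for. Below, 100 bases before and 24 after the start are given 5′ to 3′ in the direction of the gene; runs of 6 capitals are TTTGAA or its complement TTCAAA, and runs of 5 capitals are CCAAT or ATTGG. Ccnb2, Cdk1, Cdc20, Kif18b and Top2a show the arrangement of CCAAT boxes upstream of or around a TTTGAA. Spag5 is the member with the widest spread, and Ccnb1 has CCAAT boxes and no exact TTTGAA.
Ccnb2 (chr9:70421531-70421654, minus strand): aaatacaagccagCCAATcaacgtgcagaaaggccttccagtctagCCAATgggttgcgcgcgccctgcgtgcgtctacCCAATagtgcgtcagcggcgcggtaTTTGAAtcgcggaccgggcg
Cdk1 (chr10:69352889-69353012, minus strand): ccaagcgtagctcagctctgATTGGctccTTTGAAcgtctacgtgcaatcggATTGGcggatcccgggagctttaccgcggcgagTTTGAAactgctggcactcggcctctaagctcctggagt
Cdc20 (chr4:118437320-118437443, minus strand): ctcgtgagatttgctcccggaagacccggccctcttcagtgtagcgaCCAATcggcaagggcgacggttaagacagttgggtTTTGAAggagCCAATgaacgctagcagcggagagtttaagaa
Kif18b (chr11:102925101-102925224, minus strand): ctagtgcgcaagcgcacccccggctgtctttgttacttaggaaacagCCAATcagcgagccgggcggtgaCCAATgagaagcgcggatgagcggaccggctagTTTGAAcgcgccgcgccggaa
Top2a (chr11:99024166-99024289, minus strand): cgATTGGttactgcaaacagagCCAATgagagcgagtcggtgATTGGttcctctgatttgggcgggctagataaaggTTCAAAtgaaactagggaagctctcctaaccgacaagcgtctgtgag
Spag5 (chr11:78301491-78301614, plus strand): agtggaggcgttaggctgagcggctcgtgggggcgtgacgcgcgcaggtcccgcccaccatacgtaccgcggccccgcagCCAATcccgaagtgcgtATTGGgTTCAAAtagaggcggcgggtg
Ccnb1 (chr13:100786463-100786586, minus strand): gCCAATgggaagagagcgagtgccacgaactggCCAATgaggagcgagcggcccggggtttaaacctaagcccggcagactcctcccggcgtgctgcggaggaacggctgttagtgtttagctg

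Of the chromosome proteins, Mki67 and Top2a were the most abundant mitosis genes. Mki67 (chr7:135689784-135716450, GRCm38), the Ki-67 antigen that coats mitotic chromosomes and is the standard proliferation marker of pathology, had 513, 365, 713 and 400 CPM in tumours 1 to 4 (498 ± 157, SD, n = 4). Top2a (chr11:98992947-99024199), the topoisomerase that untangles sister chromatids, had 339, 198, 597 and 187 CPM, on average 330 ± 191 CPM (SD, n = 4). Per kilobase of annotated exon, Top2a had 63.3 and Mki67 49.5 CPM on average, the highest of the 35 genes, whose median was 14.9 CPM per kilobase. Top2a spread more widely than Mki67, 3.19-fold against 1.95-fold from lowest to highest tumour. The count ratio of Top2a to Mki67, which does not depend on scaling between libraries, was 0.660, 0.543, 0.837 and 0.469 in tumours 1 to 4, and the 4 exact intervals did not overlap. Intervals of this and later count ratios cover counting error only. With 1 library per tumour, variation between libraries of the same tumour is not in them.

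Among mitotic kinases and cyclins, all 6 were highest in tumour 3 and none passed the test. Ccna2, the cyclin of S phase and mitotic entry, had 83.6, 63.2, 138 and 54.4 CPM in tumours 1 to 4 (84.8 ± 37.5, SD, n = 4), and Ccnb1, the main partner of Cdk1, had 50.9, 34.0, 88.7 and 48.0 CPM (55.4 ± 23.4, SD, n = 4). Cdk1 itself, the kinase that drives mitotic entry, had nearly equal levels in tumours 3 and 1, at 86.2 and 82.5 CPM, with a ratio of 1.04 (exact interval 0.996 to 1.10). Aurka, which matures centrosomes, was likewise close in tumours 3 and 1 (47.2 and 44.6 CPM, ratio 1.06, exact interval 0.990 to 1.13) and 18.9 and 18.2 CPM in tumours 2 and 4. Plk1, the Polo-like kinase, followed the median gene within 0.05 log2 units in every tumour. Ccnb2, the second B cyclin, was the flattest of the group, at 26.2, 27.9, 44.7 and 29.5 CPM in tumours 1 to 4, and tumour 1 was its lowest. The count ratio of the B cyclins varied between these libraries by more than counting error. Ccnb1 had 1.94, 1.22, 1.99 and 1.63 counts per Ccnb2 count in tumours 1 to 4. The interval of tumour 2 (1.12 to 1.33) did not overlap those of the others. In the windows shown, Ccnb2 holds 3 CCAAT boxes and a TTTGAA, and Ccnb1 holds CCAAT boxes and no exact TTTGAA. Whether these letters bear on the levels of the 2 genes was not tested.

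The checkpoint kinases were all highest in tumour 3, and 0 of 3 passed. Bub1b, which encodes the BubR1 part of the mitotic checkpoint complex, had 96.9, 54.9, 137 and 51.7 CPM in tumours 1 to 4 (85.01 ± 40.1, SD, n = 4). Bub1, the kinase that marks inner centromeres, had 34.2, 18.0, 50.5 and 16.4 CPM (29.8 ± 15.99, SD, n = 4), a 3.08-fold range. There were 0.353, 0.329, 0.370 and 0.318 Bub1 counts per Bub1b count in tumours 1 to 4, and the interval of tumour 3 (0.351 to 0.390) lay above that of tumour 4 (0.291 to 0.347). Ttk, the MPS1 kinase at the head of the checkpoint, had the lowest mean per kilobase of all members at 4.86 CPM, with a level of 14.1 ± 3.62 CPM (SD, n = 4), and ranged 1.67-fold.

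Kinetochore and centromere genes had the widest median range of the 9 roles, 3.08-fold, and held the 1 gene that passed. Cenpa, the histone variant that specifies centromeres, had 25.2, 14.0, 50.2 and 12.2 CPM in tumours 1 to 4, the widest range after Spag5 at 4.11-fold. Cenpe, a kinetochore motor that brings chromosomes to the spindle equator, had 74.4, 41.8, 144 and 57.4 CPM. Cenpf, a large outer kinetochore protein, had 144, 88.9, 243 and 87.9 CPM (141 ± 73.1, SD, n = 4), so that tumours 2 and 4 were level. Nuf2 and Ndc80, which form a dimer that grips microtubules, had ranges of 2.43 and 1.91-fold, and 0.939, 1.07, 0.931 and 1.31 Ndc80 counts fell on each Nuf2 count in tumours 1 to 4. The interval of that ratio in tumour 4 (1.17 to 1.47) overlapped the interval of tumour 2 (0.949 to 1.21) and not those of tumours 1 and 3.

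Spag5 stood apart in the size of its range and, like Cdc20, was highest in tumour 1 rather than in tumour 3. The gene (Entrez 54141, chr11:78301470-78322457, plus strand) encodes astrin, which holds spindle poles together and stabilises kinetochore attachments. Its level was 228 CPM in tumour 1 and 186 CPM in tumour 3, against 37.9 and 32.8 CPM in tumours 2 and 4, a mean of 121 ± 101 (SD, n = 4) and a 6.96-fold range. Its estimated coefficient of variation was 0.694, against a trend of 0.332 for genes of its level. Relative to the median mitosis gene it was 1.25 log2 units higher in tumour 1, whereas no other member departed from that median by more than 0.52 in any tumour. Per Mki67 count there were 0.445, 0.104, 0.261 and 0.0820 Spag5 counts in tumours 1 to 4. With tumour 1, 3 or 4 left out the call held, at edgeR adjusted p of 0.0191, 8.69e-05 and 0.0096, and it was lost with tumour 2 left out (edgeR adjusted p = 0.0665). It was also lost under Holm adjustment.

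The neighbour downstream of Spag5 also passed the test. The 4 nearest tested genes on each side were looked up after the values of Spag5 had been seen. Aldoc (chr11:78323073-78327781), which encodes the glycolytic enzyme aldolase C, lies on the same strand. In the GENCODE annotation, which starts Aldoc further upstream than the RefSeq coordinates given here, 510 bases separate the last exon of Spag5 from the first exon of Aldoc. Aldoc had 948, 237, 613 and 129 CPM in tumours 1 to 4 (482 ± 374, SD, n = 4; edgeR adjusted p = 0.0163), in the order of tumours that Spag5 had. The upstream genes Rskr and 2610507B11Rik had that order too, within 1.51 and 1.17-fold over the 4 tumours. Leaving out tumour 1, 2 or 4 ended the Aldoc call, with edgeR adjusted p of 0.205, 0.119 and 0.23. The other 7 neighbours did not pass. Upstream, 2610507B11Rik had 548, 481, 547 and 468 CPM and Supt6 had 225, 199, 235 and 201 CPM, both within 1.18-fold over the 4 tumours, while Pigs, beyond Aldoc, had 66.1, 50.6, 89.9 and 43.3 CPM. Counts per gene do not show where reads fell, and whether reads from Aldoc transcripts entered the Spag5 count was not tested.

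**Figure D4:**
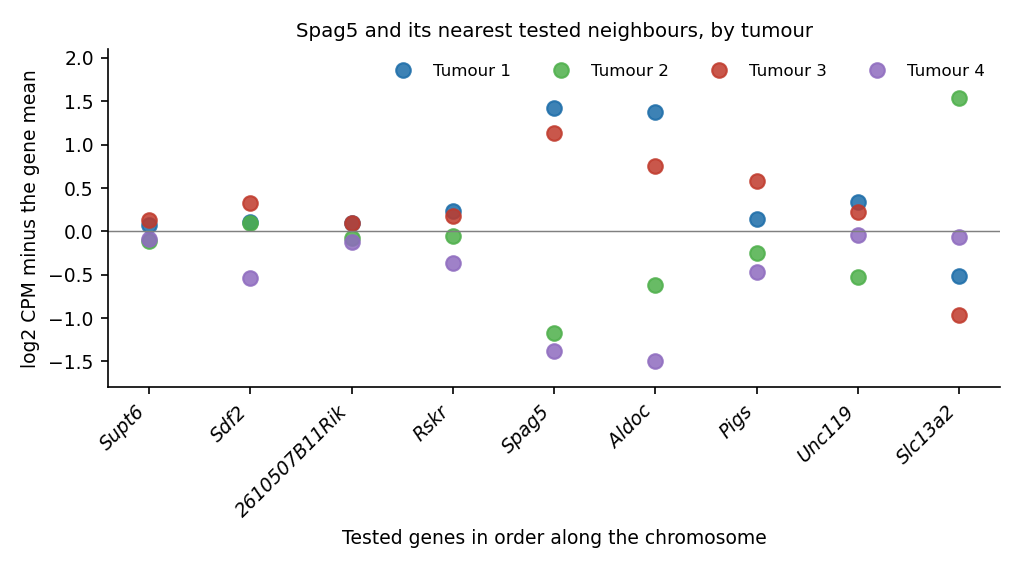
Log2 CPM minus the gene mean, by tumour, for Spag5 and the 4 nearest tested genes on each side in chromosomal order (x axis). Spag5 and Aldoc spread from 1.42 to -1.38 and from 1.38 to -1.5, while the 4 genes upstream of Spag5 stay within 0.54 of their means; Slc13a2 has under 3 CPM in every tumour.

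The chromosomal passenger complex, which corrects faulty attachments and later directs cleavage, was highest in tumour 3 in all 4 members, with 0 past the test. Incenp, its scaffold, had the highest mean and widest range at 52.1, 29.1, 72.8 and 39.3 CPM in tumours 1 to 4 (48.3 ± 18.9, SD, n = 4). Birc5, which encodes survivin, and Aurkb, its kinase, ranged 2.25 and 2.45-fold. Cdca8, which encodes borealin, ranged 1.85-fold and stood in tumour 4 0.49 log2 units above the median member. There were 1.53, 0.959, 0.979 and 0.923 Aurka counts per Aurkb count in tumours 1 to 4, and the interval of tumour 1 (1.42 to 1.64) lay above the other 3.

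Kinesins, the motors of the spindle, were highest in tumour 3 in 5 of 5, and 0 passed. Kif11, the motor that pushes spindle poles apart, had 117, 71.7, 137 and 78.1 CPM in tumours 1 to 4 (101 ± 31.1, SD, n = 4). Kif18b, which shortens astral microtubules, had 25.5, 15.6, 48.5 and 15.04 CPM (26.2 ± 15.7, SD, n = 4), a 3.23-fold range in which tumours 2 and 4 were alike. Kif2c, a microtubule depolymerase at centromeres, had the narrowest range of the group at 1.79-fold. Kif20a and Kif23, which act at the midzone in cytokinesis, ranged 2.69 and 2.39-fold.

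Of the spindle microtubule proteins, Tpx2, which activates Aurora A, had 79.9, 51.7, 112 and 48.7 CPM in tumours 1 to 4 (73.1 ± 29.5, SD, n = 4). Tpx2 followed the median member within 0.05 log2 units in every tumour, as Plk1 did. Prc1, which bundles the midzone, had 86.4, 51.1, 112 and 60.7 CPM (77.6 ± 27.4, SD, n = 4), and Nusap1 ranged 2.17-fold. None of the 3 passed.

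Genes of anaphase and mitotic exit had a narrower median range of 2.16-fold, and 0 of 3 passed. Cdc20, which activates the anaphase-promoting complex, had 52.7, 34.1, 51.3 and 40.5 CPM in tumours 1 to 4 (44.6 ± 8.91, SD, n = 4), the narrowest range of all members at 1.55-fold. Its level in tumour 3 relative to tumour 1 was 0.974 (exact interval 0.917 to 1.04), so no difference beyond counting error was detected between these libraries. Per Mki67 count, Cdc20 was lowest in tumour 3 (0.0719) and 0.0933 to 0.103 in the other tumours. Ube2c, the ubiquitin-conjugating enzyme of the same complex, had 55.5, 29.1, 62.9 and 31.9 CPM (44.8 ± 16.9, SD, n = 4). Ube2c shares 592 exonic bases with the muscle gene Tnnc2 on the other strand, and Tnnc2 had 30.9 CPM in tumour 3, 0.0488 CPM in tumour 4 and no count in tumour 1 or 2, where 0 counts limit it to 0.0708 and 0.0868 CPM. Since the use of strand is not given in the sources used here, some reads of this stretch may be assigned to either gene. Espl1, which encodes separase, had 42.4, 34.0, 52.5 and 22.2 CPM (37.8 ± 12.8, SD, n = 4) and was lowest in tumour 4.

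The cytokinesis genes were all highest in tumour 3, with 0 of 3 past the test. Racgap1, a part of centralspindlin with Kif23, had 83.2, 49.8, 105 and 43.7 CPM in tumours 1 to 4 (70.4 ± 28.8, SD, n = 4). Ect2, the exchange factor that activates RhoA at the cleavage furrow, had 40.7, 32.2, 75.8 and 27.9 CPM (44.2 ± 21.8, SD, n = 4). Anln, which encodes the furrow scaffold anillin, had 51.8, 52.8, 102 and 56.1 CPM, so tumours 1, 2 and 4 were level and tumour 3 stood apart. Racgap1 had 2.62, 2.09, 2.01 and 2.01 counts per Kif23 count in tumours 1 to 4, and the interval of tumour 1 (2.46 to 2.79) lay above the other 3.

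Exons of 7 of the 35 genes overlap a gene on the opposite strand: Ccna2, Plk1, Kif20a, Nusap1, Prc1, Cdc20 and Ube2c. The longest overlap, 1271 bases, is that of Kif20a with Cdc23, which had 94.4, 58.9, 67.3 and 56.2 CPM in tumours 1 to 4. The 28 genes without an overlap include Mki67, Top2a, Spag5 and all kinetochore genes.

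Mitosis genes outside the 35 were mostly highest in tumour 3 as well. Of 53 further genes in 5 lists, 50 were highest in tumour 3 (29.7% of all genes tested were highest there). Their medians were 0.04, -0.36, 0.65 and -0.37 log2 units in tumours 1 to 4. Of the 53, 0 passed the test and DESeq2 marked 0. An unadjusted p under 0.05 was found for 2 of them, and for 1381 of the 15808 genes tested. Tacc3, a partner of Aurora A at the spindle, had 45.3, 22.6, 100.3 and 27.3 CPM (edgeR adjusted p = 0.141), the widest range of the 53. Ckap5, the microtubule polymerase chTOG, had the highest mean CPM, not scaled to length, at 189, 130, 238 and 118 CPM. Bub3, a checkpoint protein, had 83.2, 73.7, 87.4 and 70.0 CPM, and Cenpn, a centromere protein, had 5.52, 2.26, 10.01 and 4.62 CPM. Smc4, a condensin ATPase, had 151, 110, 192 and 170 CPM, and Ncapg, a condensin subunit, had 26.5, 13.8, 43.03 and 14.1 CPM. Cdc25b, a phosphatase that activates Cdk1, had 27.4, 16.3, 38.8 and 12.3 CPM, and Iqgap3 had 41.0, 29.9, 99.0 and 58.1 CPM. The exceptions to tumour 3, named after their values were seen, were Zwint, Aspm and Arhgef39. Zwint, a kinetochore protein, was nearly flat at 68.7, 77.6, 65.4 and 71.0 CPM, and Aspm, a spindle pole protein, was highest in tumour 4 at 38.9 CPM against 33.5 CPM in tumour 3. TTTGAA stood in the windows of 26 of 47 of these genes (55.3%).

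The 18 DNA replication genes were all highest in tumour 3 (29.7% of all genes tested were highest there). Their medians were -0.01, -0.37, 0.74 and -0.30 log2 units in tumours 1 to 4. None passed, and DESeq2 marked 0. An unadjusted p under 0.05 was found for 2 of the 18, and for 1381 of the 15808 genes tested. Rrm1, a subunit of ribonucleotide reductase, had 126, 86.3, 165 and 103 CPM, and Tk1, thymidine kinase, had 44.6, 31.2, 82.8 and 22.5 CPM. TTTGAA stood in the windows of 1 of 15 replication genes (6.67%) and CCAAT in 11 (73.3%).

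**Figure D5:**
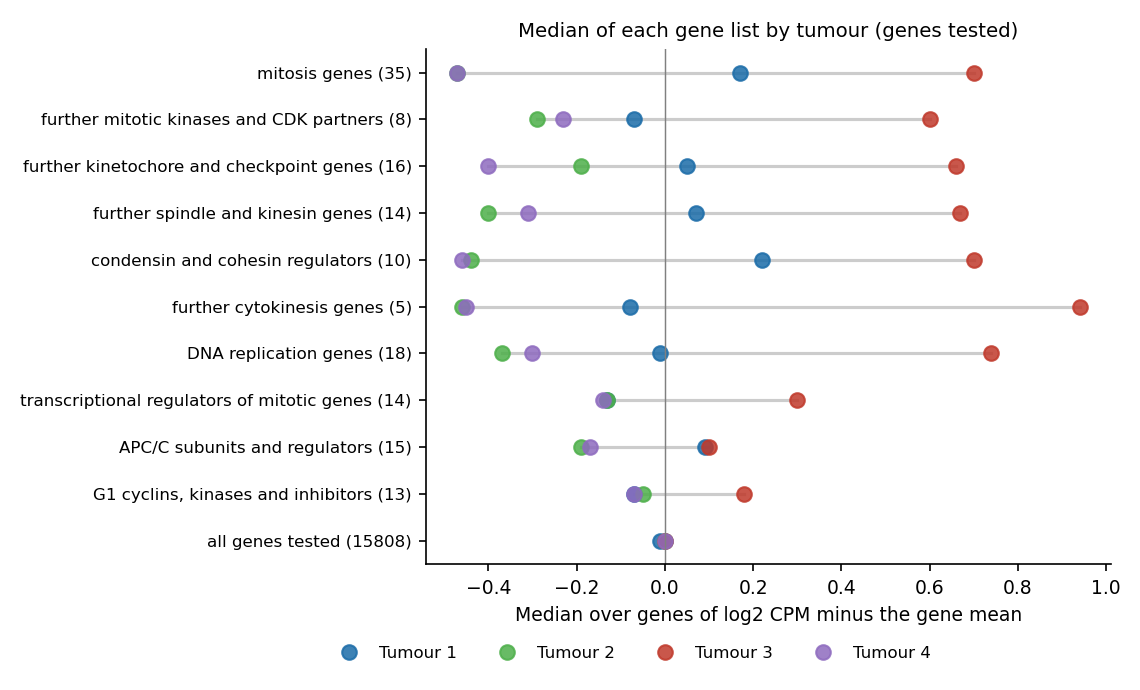
Median over the genes of each list of log2 CPM minus the gene mean, 1 point per tumour, with the number of genes tested in brackets. Tumour 3 lies at 0.60 to 0.94 for the mitosis and replication lists and at 0.10 to 0.30 for regulators, anaphase-promoting complex subunits and G1 genes.

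The lists of transcriptional regulators and of the anaphase-promoting complex had narrower median ranges than the mitosis genes, though the difference between lists was not tested. Of 14 transcriptional regulators 9 were highest in tumour 3 (29.7% of all genes tested were highest there), and the median range of the 14 was 1.57-fold. Foxm1, a forkhead factor that activates mitosis genes, had 22.4, 19.2, 52.4 and 16.3 CPM in tumours 1 to 4 (edgeR adjusted p = 0.882), and Mybl2, which encodes B-MYB and was picked after its values were seen, had 17.0, 11.5, 30.4 and 14.0 CPM. Unlike the list's median, Foxm1 at 3.2-fold and Mybl2 at 2.63-fold ranged more widely than the median mitosis gene at 2.39-fold. Tfdp1, an E2F partner with the list's highest mean CPM, had 69.5, 76.2, 104 and 80.0 CPM. Subunits and regulators of the anaphase-promoting complex ranged 1.46-fold at the median, less than the 1.72-fold of all genes tested. Of these 15 genes, 7 were highest in tumour 3, against 29.7% of all genes tested. Among the 7 were Anapc5 at 254, 244, 468 and 255 CPM and Anapc11 at 29.7, 18.4, 41.5 and 18.0 CPM. No gene of either list had an unadjusted p under 0.05, and DESeq2 marked 0.

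The 13 G1 genes had no common order, with 7 highest in tumour 3 (29.7% of all genes tested were highest there). Their medians were -0.07, -0.05, 0.18 and -0.07 log2 units in tumours 1 to 4. Ccnd1, cyclin D1, had 117, 84.95, 386 and 147 CPM in tumours 1 to 4 (edgeR adjusted p = 0.121). Rb1, picked after its values were seen, whose protein restrains entry into S phase, had 81.6, 142, 29.5 and 147 CPM (edgeR adjusted p = 0.123), lowest in tumour 3. Cdkn2a, which encodes p16 and ARF, had 10.4, 3.82, 1.36 and 1.08 CPM (edgeR adjusted p = 0.133). None of the 13 passed, 3 had an unadjusted p under 0.05 (1381 of the 15808 genes tested did), and DESeq2 marked 0.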

How the data were processed

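Poly-A RNA of 4 tumours was sequenced as paired reads, per the labels' protocols. The authors deposited whole-number counts per Entrez gene without normalization. The submitters' processing notes name FastQC as a tool and GRCm38 and mm10 as builds. Which aligner, counter, annotation and strand setting were used is not given in the sources used here. Of 28440 rows, 24480 (86.08%) matched a RefSeq symbol (GRCm38.p6), with 97.86% of counts, and all 35 mitosis genes matched. The number of unused columns of per-sample values was 0. Library totals were 42809015, 35220504, 36885892 and 41756363 counts in tumours 1 to 4, so 3 counts correspond to 0.0708, 0.0868, 0.0784 and 0.0733 CPM.

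The analysis used edgeR 4.0.16 (R 4.3.3): filterByExpr with 1 group (minimum 10 counts, 15 in total), TMM scaling, and log2 CPM with a prior count of 2. With no contrast, a negative binomial model with an intercept alone was fitted to each gene at the trended dispersion (common coefficient of variation 0.411, trend 0.331 to 0.514), and its deviance was read as a chi-square value. P-values were adjusted by Benjamini-Hochberg over the 15808 genes. Ratios and shares have exact 95% binomial intervals (Clopper-Pearson, SciPy 1.17.1) that cover counting error only. Exon lengths and overlaps came from GENCODE vM21 (GRCm38). DESeq2 1.42.0 dispersion outliers, other scalings, filters, dispersions, prior counts, Holm adjustment and leaving out each tumour were the alternatives.

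The mitosis genes, the other gene lists and the markers were chosen with earlier results of these data known. Values in every tumour were given by rule for the most abundant and widest-ranging genes of each role and list and for members whose highest tumour differed from the median member; other genes are examples named after their values were seen.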

Additional observations from a re-analysis of the deposited data

Results flagged for a closer look

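Within the 4 tumours, a gene was looked at again where its highest or lowest tumour stood so far from the next that the gap, divided by the whole range in log2 CPM, passed Dixon's 95% critical value for 4 samples. Of 62 genes examined, 3 did, 2 of them among the 35 mitosis genes, and chance marks about 1 in 20. Ndc80 had a gap of 0.843 of its range and Anln of 0.884, both with tumour 3 far above the other tumours. Anapc5, a subunit of the anaphase-promoting complex, had a gap of 0.929, also with tumour 3 high.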

How the results depend on the processing

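The number of genes past the spread test was 574, against 895 with no count filter, 198 with Holm adjustment, 91 by DESeq2 dispersion outliers and 367 to 417 when 1 tumour was left out, where fewer samples were fitted. The number of mitosis genes past it was 1, against 0 with Holm adjustment, 0 by DESeq2 and 0 to 1 when 1 tumour was left out, with the loss of Spag5 without tumour 2; the cause was not tested. It was 0 without Spag5, an alternative chosen after seeing the data. Tumour 3 was highest for 33 to 35 mitosis genes under other scalings or without tumour 1, 2 or 4. The median deviation of tumour 1, 0.17 log2 units, was 0.0 without tumour 2 or tumour 4 and 0.43 without tumour 3, since the mean it is set against moves with the tumours left. The log2 range of single mitosis genes, which has no sign, moved by over 1.5 times for 24 of 35 genes without tumour 3, 4 without tumour 2 and 1 without tumour 4, and for 0 under the other settings run. Without tumour 3 it was 0.09 for Anln, 0.15 for Ndc80 and 0.15 for Ccnb2, against 0.97, 0.93 and 0.77 with all tumours. No paired analysis was possible because the 4 tumours form 1 group. Ratios near 1, such as Cdc20, Cdk1 and Aurka between tumours 3 and 1, had counting intervals that include 1. With 1 library per tumour, variation between libraries of the same tumour was not measured.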
